A study of Caenorhabditis elegans with 3 samples.

Results

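The 6 C. elegans microRNA (miRNA) genes mir-71, mir-238, mir-239a, mir-239b, mir-34 and mir-246 have reported roles in ageing or stress. Here their RNAs are described as contacts of DCR-1, the worm's only Dicer. A cluster, a run of overlapping crosslinked reads, was taken when the authors' annotation called it miRNA and named 1 of these genes on the same strand. All 6 genes had a cluster, among 100 miRNA genes with one in any list. They held 33 of the 9293 clusters in the 5 deposited lists: 7, 5 and 7 in the library lists and 7 in each pooled list. No cluster of these genes named a further miRNA gene.

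Sites were mapped by PAR-CLIP, a method that feeds cells 4-thiouridine (4SU), fixes labelled RNA to a bound protein with UV light, and finds the contact from T-to-C conversions in the reads. All 3 libraries came from whole worms at the young adult stage of strain FLAG:DCR-1, in which a FLAG-tagged DCR-1 rescues the strain, so no untagged or unlabelled control was analysed here. Replicates 1 and 2 are labelled T1/V1, for RNases T1 and V1, and have a custom 3' adapter. Replicate 3 is labelled T1 and has the default adapter, so nuclease and adapter cannot be told apart. The library lists held 1719, 1207 and 4315 reads on miRNA genes, out of 7829, 10834 and 24992 reads in all. The authors also deposited 2 pooled lists, called consensus and conservative, with 27092 and 27040 miRNA reads. Whole worms were used, so more cells with a miRNA and more of it per cell cannot be told apart.

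A miRNA gene is transcribed as a longer RNA that folds into a hairpin. Drosha cuts the hairpin free, and Dicer then cuts off its loop to leave a duplex of the 5' and 3' arms, of which usually 1 arm is loaded into an Argonaute protein. In C. elegans, loss of mir-71, mir-238 or mir-246 shortens life and loss of mir-239a and mir-239b lengthens it. The gene mir-71 acts with the insulin and FOXO pathway, and mir-34 belongs to a family conserved in mammals that responds to DNA damage. The mature miRNAs of mir-238, mir-239a and mir-239b share a seed family, the stretch that pairs with targets.

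The loci lay on 4 chromosomes. Coordinates come from the lists as deposited, and the sources used here name no build for them. The mir-71 consensus cluster spanned chrI:9379925-9380001 on the minus strand, inside an intron of ppfr-1, which encodes a regulatory subunit of protein phosphatase 4. That host gene had 2 exon clusters with 9 reads in the consensus list and none in the library lists. The mir-238 cluster spanned chrIII:8867247-8867320 on the minus strand, and 1990 bases separated it from the cluster of the miRNA gene mir-80 on the same strand. The mir-239a cluster spanned chrX:11792379-11792456 on the plus strand and that of mir-239b chrX:11791229-11791312 on the minus strand, so the genes point away from each other across 1066 bases. The mir-34 cluster spanned chrX:2969766-2969827 on the minus strand. The genes mir-238, mir-239a, mir-239b and mir-34 had no protein-coding annotation on the same strand within their clusters. The gene mir-246 had a pair of consensus clusters on the plus strand, chrIV:10940122-10940152 and chrIV:10940161-10940188, in the region annotated as downstream of ZK593.8 and as promoter of ZK593.9. No list held a cluster on the opposite strand of any of the 6 loci.

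In the library lists mir-71 was by far the most read of the 6 genes, mir-238, mir-239a and mir-34 lay in the middle, and mir-239b and mir-246 were the least read. The mir-71 locus held 117, 89 and 301 reads in replicates 1, 2 (both T1/V1) and 3 (T1). By reads it ranked 3 of 62, 2 of 45 and 3 of 78 miRNA genes. The mir-238 locus held 34, 30 and 155 reads and ranked 15, 14 and 6. Both genes had their most reads in T1 replicate 3, the deepest list, and mir-238 but not mir-71 ranked higher there than in both T1/V1 lists. The mir-239a locus held 24, 13 and 120 reads and ranked 21, 30 and 11. The mir-34 locus held 24, 31 and 78 reads and ranked 21, 13 and 18. So mir-239a stood far higher in T1 than in either T1/V1 list, while mir-34 lay in T1 between its T1/V1 ranks. Below these, mir-246 held 14 reads in T1/V1 replicate 1, was missing from the list of T1/V1 replicate 2 and held 14 reads in T1 replicate 3. The mir-239b locus had a cluster in T1 replicate 3 alone among the library lists, with 19 reads. A member cluster was thus listed for 5, 4 and 6 of the 6 genes, beside 63.9%, 44.3% and 79.4% of the 97 consensus miRNA genes. In all 3 libraries there was one for mir-71, mir-238, mir-239a and mir-34, beside 43.3% of those 97.

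Because the libraries differ in depth, reads were also set against all miRNA reads of the same list. The mir-71 share was 7.09% ± 0.401 (SD, n = 2) over the T1/V1 pair against 6.98% for T1, a difference smaller than the replicate spread. The mir-34 share was 1.98% ± 0.829 (SD, n = 2) and 1.81%, also within that spread. For mir-238 it was 2.23% ± 0.359 (SD, n = 2) against 3.59%, and for mir-239a 1.24% ± 0.226 (SD, n = 2) against 2.78%, both T1 values lying outside the range of the T1/V1 pair. In T1 replicate 3 mir-239b took 0.44% and mir-246 0.324%, and mir-246 took 0.814% in T1/V1 replicate 1. The shares of mir-238, mir-239a and mir-34 had overlapping exact (Clopper-Pearson) 95% intervals within T1/V1 replicate 1, so their order there is not resolved, and mir-239b and mir-246 overlapped in T1 replicate 3. Together the 6 genes took 12.4% and 13.5% of the miRNA reads in the T1/V1 libraries, 15.9% in the T1 library and 16.8% in the consensus list. Intervals cover counting error only, since reads without molecular identifiers are not independent molecules.

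**Figure D1:**
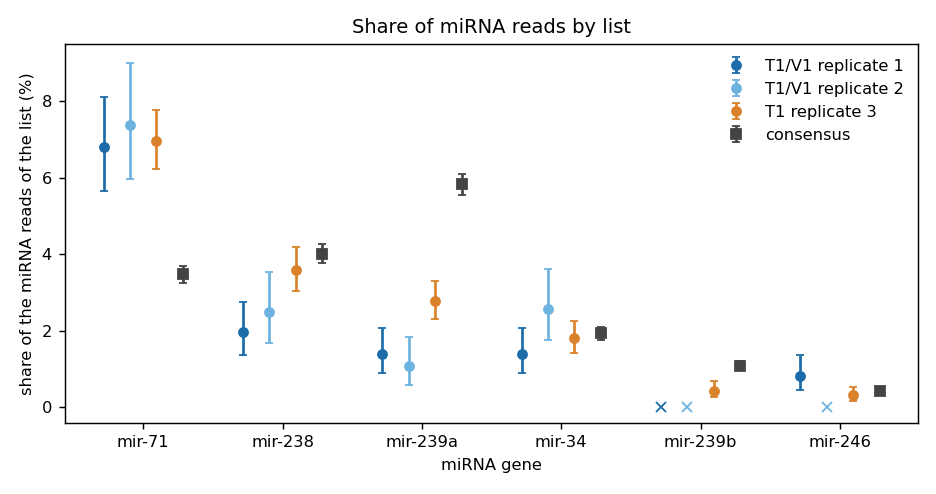
Share of the miRNA reads of each list (y axis, %) on each of the 6 genes (x axis). Circles are the 3 libraries, squares the authors' pooled consensus list, bars exact 95% binomial intervals, and crosses mark lists with no cluster on the gene. The mir-71 shares of the libraries lie between 6.81% and 7.37% and that of the consensus list at 3.48%, while mir-239a is lowest in the T1/V1 libraries and highest in the consensus list.

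For every miRNA gene a two-sided Fisher's exact test compared its share between libraries, with Benjamini-Hochberg adjustment over all genes and all 3 pairs of libraries. The test compares these libraries and not the nucleases. Between the T1/V1 replicates 20% of 65 miRNA genes passed at an adjusted p under 0.05, 7.69% higher and 12.3% lower in replicate 2. These calls mix replicate differences with cluster calling, since some of the genes called were listed in only 1 of the replicates. The members with a cluster in both, mir-71, mir-238, mir-239a and mir-34, did not pass there, with Fisher's exact adjusted p from 0.0938 (mir-34, log2 ratio 0.87) to 0.716 (mir-71, log2 ratio 0.12). Lists hold called clusters only, so a missing cluster is not a count of 0 reads. For mir-246 in T1/V1 replicate 2 and mir-239b in both T1/V1 libraries the comparison with a library that lists the gene was therefore fixed by cluster calling, and no test of it is given. The background shares of all 3 pairs do include genes missing from 1 of the lists. They are therefore not a like-for-like measure for members listed in both.

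Between T1/V1 replicate 1 and T1 replicate 3 the background was 17.7% of 79 genes in either direction with 13.9% higher and 3.8% lower in T1. Some of the genes called higher had no cluster in T1/V1 replicate 1, and the background includes the members themselves. The genes mir-238 and mir-239a passed, both with the higher share in T1. For mir-238 the log2 ratio of shares, T1 over T1/V1, was 0.84, and for mir-239a 0.97 (each Fisher's exact adjusted p = 0.01). For mir-246, with 14 reads in each, the ratio was -1.33 and did not pass (Fisher's exact adjusted p = 0.0767). Neither did mir-71 (0.03, adjusted p = 0.961 by the same exact test) or mir-34 (0.35, adjusted p = 0.463).

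Between T1/V1 replicate 2 and T1 replicate 3, 22.5% of 80 genes were called, 12.5% higher and 10% lower in T1. Most of the genes called higher had no cluster in T1/V1 replicate 2, though mir-239a did have one. The gene mir-239a passed again with a log2 ratio of 1.32 (Fisher's exact adjusted p = 0.00395). The mir-238 ratio was 0.51 and did not pass (Fisher's exact adjusted p = 0.187). The ratios of mir-71, -0.09, and mir-34, -0.52, did not pass either (adjusted p = 0.812 and 0.231 by the same exact test), which does not show that their shares were equal.

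Several of these calls depend on what is counted. With conversions in place of reads the mir-239a ratios in T1 were about as large, 1.07 and 1.28, but did not pass (Fisher's exact adjusted p = 0.113 and 0.204). The mir-238 ratio by conversions still passed over T1/V1 replicate 1 (1.56, Fisher's exact adjusted p = 0.00538). Over T1/V1 replicate 2 it again did not pass (0.46, Fisher's exact adjusted p = 0.998). As a share of all reads of a list, mir-238 and mir-239a no longer passed against T1/V1 replicate 1 (log2 ratios 0.50 and 0.62, Fisher's exact adjusted p = 0.123 and 0.107), while mir-238 passed against T1/V1 replicate 2 (1.14, adjusted p = 0.000145) and mir-239a differed between the T1/V1 replicates (-1.33, adjusted p = 0.0246). By that share mir-71 too differed between T1/V1 replicate 2 and each of the others, and mir-246 between T1/V1 replicate 1 and T1 replicate 3 (-1.67, Fisher's exact adjusted p = 0.0108). By the same share 30 of all miRNA genes passed between the T1/V1 replicates. The number was 18 for T1/V1 replicate 1 against T1 and 27 for T1/V1 replicate 2 against T1. With clusters of at least 10 reads, mir-34 passed between the T1/V1 replicates (1.51, Fisher's exact adjusted p = 0.00236) and in T1 over T1/V1 replicate 1 (0.91, adjusted p = 0.043), since that minimum removes its 3' piece of 9 reads in T1/V1 replicate 1. The same minimum removes both mir-239a pieces of T1/V1 replicate 2, and with it mir-246 passed in T1 over T1/V1 replicate 1 (-1.65, Fisher's exact adjusted p = 0.0122). With that minimum 23, 29 and 26 of all miRNA genes passed, in the same order of pairs.

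The genes with the most similar read shares were found by the distance of log2 shares over the 3 libraries. For mir-71 these were mir-48, a let-7 family timer of larval development, with 9.02%, 6.71% and 7.76% of the miRNA reads (distance 0.453), and mir-80 (distance 0.75). The mir-80 gene is the neighbour of mir-238, and its shares were 5%, 5.39% and 5.26%. Closest to mir-238 were mir-56, with 2.04%, 2.9% and 2.83% (distance 0.41), and mir-35 (0.772). The mir-35 and mir-36 genes share a consensus cluster with neighbouring miRNA genes. In T1 replicate 3 both had the same 94 reads, 46 conversions and 120 edits, as a shared cluster counted for each would give. Their 2.18% there may thus not be the share of either gene alone. For mir-34 the closest genes were mir-55 (0.492) and mir-36 (0.662), and for mir-239a mir-65 (0.785) and mir-77 (0.826). With 3 libraries a distance describes these lists and was given no test.

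In the pooled lists the order of the 6 genes was different. The mir-239a locus came first with 1579 consensus reads, rank 4 of 97 miRNA genes, and mir-238 followed with 1089, rank 7. The mir-71 locus held 942 reads, rank 8, and its 3.48% of the consensus miRNA reads was below its interval in every library. The mir-34 locus held 524 reads, rank 17, at 1.93% of the miRNA reads, inside its interval in each library. For mir-239b there were 295 reads, rank 34, and for mir-246 118 reads, 89 on the upstream and 29 on the downstream cluster, rank 50. The conservative list gave the same reads for each of the 6 genes, as it did for most miRNA genes. All 7 consensus clusters had reads and conversions from all 3 libraries by the authors' own count, against 78.7% of the 108 consensus miRNA clusters, so libraries without a called mir-239b or mir-246 cluster did contribute reads to these loci.

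Pooled reads were not the sum of the library lists. For mir-71 the consensus list held 1.86 times the reads of its library clusters summed, 942 against 507. The ratio was 3.94 for mir-34, 4.21 for mir-246, 4.97 for mir-238, 10.1 for mir-239a and 15.5 for mir-239b. Over the 78 miRNA genes with both values the median ratio was 4.71, with quartiles of 2.02 and 9.82, and 91% of them had more consensus reads than the libraries summed. So mir-71 lay below the lower quartile, mir-239a and mir-239b above the upper one, and the other members near the median. The genes closest to mir-71 in library shares had lower ratios still, 1.09 for mir-48 and 1.46 for mir-80. Their consensus shares, 2.3% and 2.03%, were also below their intervals in every library. The sources used here do not say how the authors combined the libraries, and the cause of these differences was not tested.

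**Figure D2:**
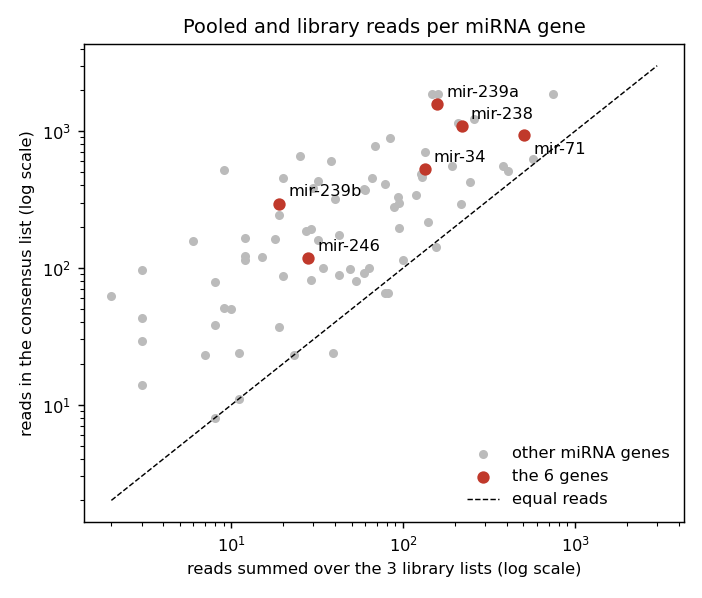
Reads in the consensus list (y axis, log scale) against reads summed over the 3 library lists (x axis, log scale) for the 78 miRNA genes with both values, 1 point per gene. The dashed line marks equal reads, and all 6 members lie above it, mir-71 nearest to it at 1.86 times and mir-239b farthest at 15.5 times.

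Crosslinking was read as T-to-C conversions per 100 edits, the mismatches of any kind that the lists count, so other mismatches lower the value. Each of the 33 clusters held at least 1 conversion, as did every other cluster of every list, since a cluster was listed only with a conversion. Among the members mir-71 had low values and mir-239a high ones in the libraries. For mir-71 they were 18.5, 22.5 and 21 in replicate order, beside medians over all miRNA genes of 25.8, 20 and 30.4. The highest of its library intervals ended at 31. Of the genes closest to mir-71 in library shares, mir-80 had lower values (14.5, 13.6 and 12.8) and mir-48 higher ones (47.9, 42.9 and 28). In the consensus list mir-71 had 38.9 (interval 36.4 to 41.4), against a median of 53.3, and ranked 76 of 97 miRNA genes from the highest. For mir-239a the values were 43.3, 50 and 57.4 in the libraries and 58.8 in the consensus list, each above the median of its list.

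The mir-238 values were 38.5, 33.3 and 49.1 in the libraries and 53.3 in the consensus list, the last at the median. For mir-34 they were 48.1, 28.9 and 37.3, and 54.5 in the consensus list. With 27, 38 and 110 edits in the libraries, the mir-34 intervals overlap each other. The mir-239b cluster of T1 replicate 3 had 75 conversions per 100 edits (interval 55.1 to 89.3, 28 edits), rank 3 of 78 genes, and 61.7 in the consensus list. For mir-246 the values were 31.8 (T1/V1 replicate 1, on 22 edits) and 28 (T1 replicate 3, on 25 edits), and 32.2 in the consensus list, rank 91 of 97.

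**Figure D3:**
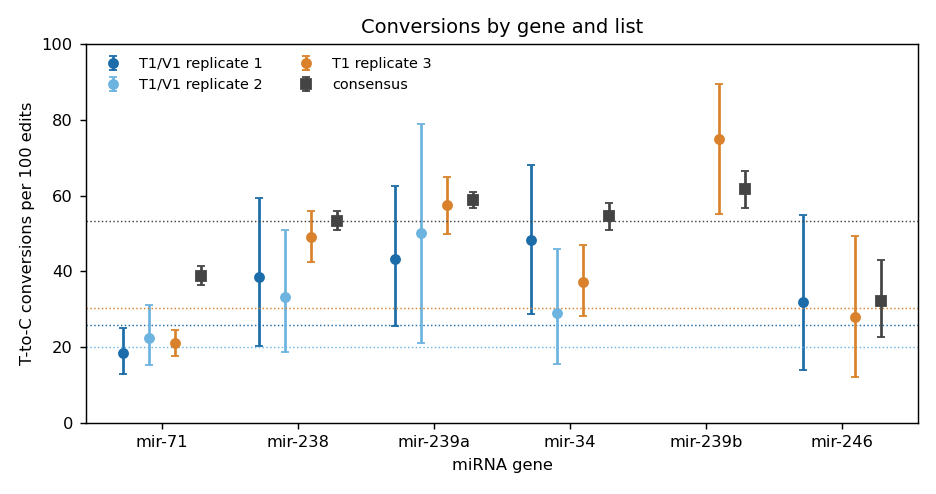
T-to-C conversions per 100 edits (y axis) for each gene (x axis), summed over its clusters in each list. Circles are libraries, squares the consensus list, bars exact 95% binomial intervals, and dotted lines the median over all miRNA genes of the list in the same colour. The mir-71 libraries lie between 18.5 and 22.5, below every value of mir-238, mir-239a and mir-239b.

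Conversions per 100 reads were also set side by side for pooled and library lists. For mir-71 there were 27.4, 30.3 and 37.9 in the libraries and 60.8 in the consensus list. For mir-34 there were 54.2, 35.5 and 52.6, and 75.8 in the consensus list. The consensus value also exceeded every library for mir-238, at 72.5 against at most 71, and for mir-239a, at 84.3 against at most 84.2, so for mir-238 and mir-239a it stood beside the T1 library. Such an excess was seen in 83.3% of the 78 miRNA genes. It was not seen for mir-239b, with 83.1 against 111, or mir-246, with 24.6 against 50 in both libraries, although per 100 edits the mir-246 consensus value lay above both.

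Along the loci, clusters ran through most of the consensus locus or were split into a 5' and a 3' piece. Positions are counted from 1 at the 5' end of the consensus locus, and each cluster ends where its reads end, which need not be the end of the hairpin. The consensus clusters of mir-71, mir-238, mir-239a, mir-239b and mir-34 were unbroken over 77, 74, 78, 84 and 62 nt. Those of mir-246 covered nt 1 to 31 and nt 40 to 67, with 8 nt between them. In T1 replicate 3 all but mir-246 were again unbroken, with clusters of 64, 72, 69, 81 and 59 nt in the order just given.

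Among the T1/V1 libraries split loci were seen at mir-239a and mir-34. The mir-239a locus had a pair of clusters in both T1/V1 libraries with the same gap of 6 nt, at nt 42 to 47. Its 5' pieces held 18 and 9 reads and its 3' pieces 6 and 4. At mir-34, T1/V1 replicate 1 had a 5' piece of 28 nt with 15 reads and a 3' piece of 25 nt with 9 reads, again 6 nt apart. T1/V1 replicate 2 had the same 5' piece with 31 reads and no 3' piece. At mir-71, T1/V1 replicate 2 covered nt 5 to 36 only, with 89 reads, while T1/V1 replicate 1 covered nt 5 to 67 with 117. The mir-238 locus was unbroken in both, from nt 4 to nt 73, with the same first and last base. At mir-246, T1/V1 replicate 1 had only the 3' piece, with 14 reads, and T1 replicate 3 had 12 reads on the 3' piece and 2 on the 5' piece, whereas in the consensus list the 5' piece was the larger. With a single T1 library the nucleases were not tested against each other.

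The main crosslink position, which the lists name ccr, recurred to the base at several loci. At mir-71 all 3 libraries gave nt 6, whereas the consensus list gave nt 57. At mir-239a the 3' pieces of both T1/V1 libraries, the T1 library and the consensus list all gave nt 63, on clusters of 6, 4, 120 and 1579 reads, while the 5' pieces gave nt 6 and nt 8. At mir-238 both T1/V1 libraries and the consensus list gave nt 4, and the T1 library nt 61. At mir-34 the 3' piece of T1/V1 replicate 1, the T1 library and the consensus list gave nt 54, and the 5' pieces gave nt 15 and nt 9. At mir-239b the T1 library gave nt 5 and the consensus list nt 61. The 5' piece of mir-246 had its position at nt 14 in the T1 library and in the consensus list, and the 3' piece at nt 57, 64 and 43 in T1/V1 replicate 1, T1 replicate 3 and the consensus list. Several library positions lay at or next to the 5' end of their cluster. The mir-71 clusters began at nt 5, 5 and 4 in replicate order. Both T1/V1 mir-238 clusters and the T1 mir-239b cluster began at nt 4. Whether the ends of reads affect these positions was not tested.

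Among the 42 miRNA genes with a cluster in all 3 libraries, 33.3% shared a main crosslink position across the 3, as mir-71 and mir-239a did and mir-238 and mir-34 did not. Both T1/V1 libraries shared one in 50%, replicates 1 and 3 in 52.4% and replicates 2 and 3 in 42.9% of them. In 23.8% the shared position was also that of the consensus list, as for mir-239a. For each gene and library the cluster with the most conversions, and of equal ones that with more reads, was then compared with the consensus list by 5', middle and 3' parts of equal length. In both T1/V1 libraries the position lay in another part than in the consensus list for mir-71, mir-239a and mir-34 and in the same part for mir-238. For mir-71 and mir-34 this was fixed by coverage in T1/V1 replicate 2. Their clusters there end at nt 36 and nt 30, before the consensus positions at nt 57 and nt 54. In T1/V1 replicate 2 the mir-239a pieces tie at 3 conversions each, and the 3' piece has the position of the consensus list. Over all miRNA genes with 1 consensus cluster of 55 to 85 nt, mir-71 and mir-34 included, the position lay in another part in 43.2% of 44 and 50% of 32. In T1 replicate 3 it lay in another part for mir-71, mir-238 and mir-239b and in the same part for mir-239a and mir-34, against 40.7% of 54. In the consensus list the position lay in the 3' part for mir-71, mir-239a, mir-239b and mir-34, and in the 5' part for mir-238, beside 17 and 29 of 57 such genes. The 5' positions of mir-34 and mir-239a and all library positions of mir-246 rest on clusters of at most 31 reads. So do the T1/V1 3' positions of mir-34 and mir-239a, the mir-239b position in T1 replicate 3 and the mir-238 position in T1/V1 replicate 2. The part of depth in these differences was not tested.

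**Figure D4:**
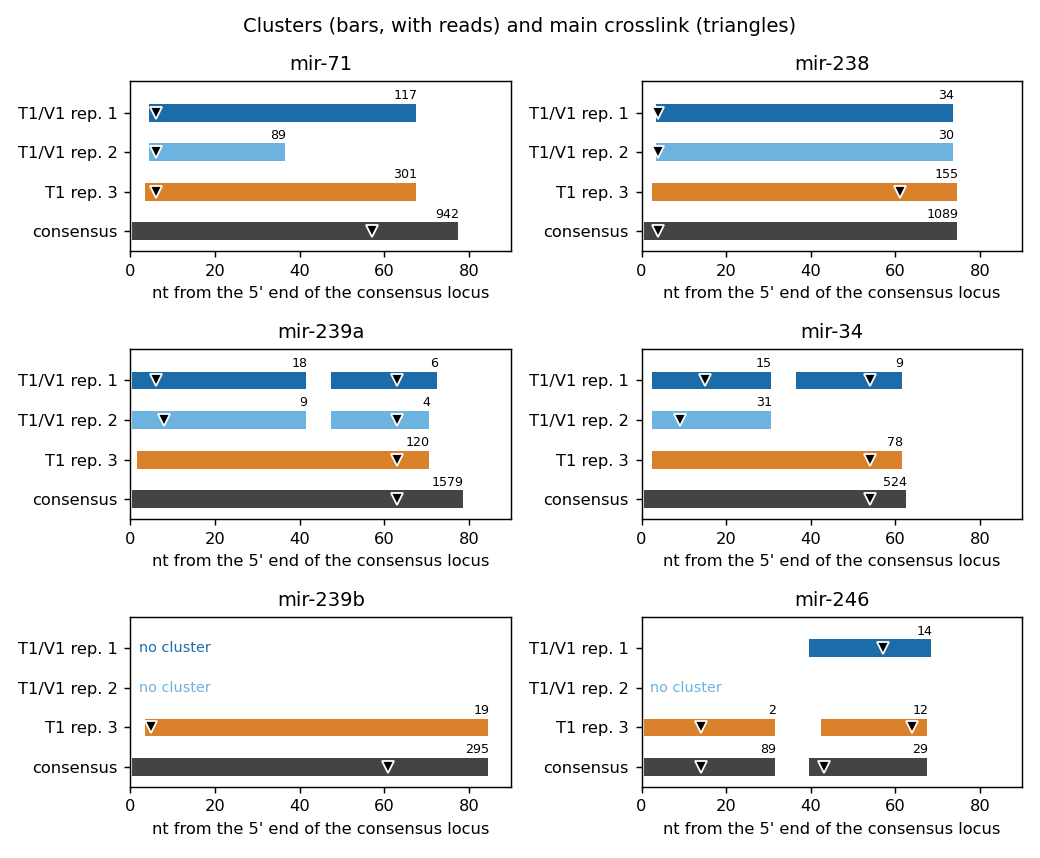
Clusters at each of the 6 loci (bars) along the distance in nt from the 5' end of the consensus locus (x axis), in 3 libraries and the consensus list (y axis), with reads printed at the 3' end of each bar and triangles at the main crosslink position. The mir-239a triangle at nt 63 recurs in every list, while that of mir-71 lies at nt 6 in the libraries and at nt 57 in the consensus list.

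Clusters on mRNAs of pathways tied to these miRNAs were counted for exons, against a background of 5.98% of 19983 protein-coding genes with a conservative cluster in an exon and 10.2% with a consensus one. Transcript abundance was not measured, and these counts were given no test. Of the 10 insulin and FOXO pathway genes 2 had a conservative and 4 a consensus exon cluster. With a conservative one was daf-16, the FOXO transcription factor at the end of the pathway, with 9 conservative reads in 3 clusters. Of the 29 stress regulators and effectors 7 had a conservative and 11 a consensus exon cluster, led by the chaperone genes hsp-1 with 105 conservative reads, hsp-3 with 30, daf-21 (hsp-90 in RefSeq) with 29 and hsp-6 with 10. Heat-inducible hsp-16 genes had none in any list.

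Of the 6 reported mir-71 targets, none had a conservative exon cluster, and age-1 and chk-1 had 2 and 4 consensus reads in exons. A cell cycle phosphatase gene among them, cdc-25.1, had an exon cluster of 2 reads in T1 replicate 3. An intron of tir-1, an adaptor of innate immune and neuronal signalling, held 61 reads with 64 conversions in T1/V1 replicate 1 and 24 reads with 32 conversions in T1/V1 replicate 2. These clusters lay at chrIII:3877446-3877487 and chrIII:3877448-3877489 on the minus strand, opposite a simple repeat annotated (G)n, and the T1 and pooled lists had none there. The unc-31 cluster of 5 conservative reads lay on an annotated small nuclear RNA within an intron. Of the 9 genes of miRNA processing and function 3 had a conservative exon cluster and 4 a consensus one. The former were dcr-1 with 7 reads, the exonuclease gene xrn-2 with 3, and ain-1, a partner of miRNA Argonautes, with 2.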

How the data were processed

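PAR-CLIP clusters of 3 libraries, 2 labelled T1/V1 and 1 labelled T1, were read from the authors' lists. The submitters' processing notes name Bowtie2 2.1.0, and the sources used here give neither build nor annotation. The authors called clusters at an estimated false discovery rate of 5%, per the file headers, and deposited counts of reads, edits and T-to-C conversions per cluster, not normalised, and an entropy score that was not used further. By the lists' own attribute every read counted as unique.

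Reads per miRNA gene were summed over its clusters. A cluster over several miRNA genes counted for each, but once in the total. Counts were compared as described, with 0.5 reads added for log2 ratios and distances. The 6 genes and all gene lists were chosen with earlier results of these data known. Named genes were the members, the 2 genes most like each member found in all 3 libraries, and up to 4 genes per pathway list by conservative reads, with dcr-1. The values of 1 pathway gene are not reported here. The hsp-16, age-1, chk-1, cdc-25.1, unc-31 and tir-1 results were chosen after their values were seen. Genes of the same seed were to be named too, but no sequence was used here. Nothing says that libraries came from separate cultures, so spreads may be technical. RefSeq names (WBcel235) matched all listed genes. The Fisher code was tested on simulated data. Tests ran in SciPy 1.17.1 and statsmodels 0.14.6, tables in pandas 2.3.3 and numpy 2.4.6, and plots in matplotlib 3.10.9, under Python 3.11.15.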

Additional observations from a re-analysis of the deposited data

How the results depend on the processing

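With conversions in place of reads, the 6 genes took 16.3% of the miRNA total as the T1/V1 mean, 20.3% in T1 and 18.6% in the consensus list. Without clusters over several miRNA genes the consensus share was 18.3%. As a share of all reads of the list the values were 2.11%, 2.75% and 4.94%, a different quantity. Leaving out either T1/V1 replicate only returns the share of the other, 12.4% or 13.5% beside the mean of 12.9%, and so is no further check. The T1 group has 1 library.

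Between the T1/V1 replicates 13 miRNA genes passed, against 1 with conversions, 23 with clusters of at least 10 reads and 30 as a share of all reads. Between T1/V1 replicate 1 and T1 replicate 3 the 14 genes became 6 with conversions and 29 with at least 10 reads, and between T1/V1 replicate 2 and T1 replicate 3 the 18 genes became 1 with conversions. Directions turned as a share of all reads for the log2 ratios between the T1/V1 replicates (mir-71 -0.86, adjusted p = 0.000195 by Fisher's exact test; mir-238 -0.65; mir-34 -0.11) and, over T1/V1 replicate 2, for mir-71 (0.55, Fisher's exact adjusted p = 0.00581) and mir-34 (0.11) in T1. The T1 over T1/V1 replicate 1 ratio of mir-71 turned to -0.020 with conversions, -0.073 with at least 10 reads and -0.32 as a share of all reads, and that of mir-34 to -0.22 with conversions. As a share of all reads, the log2 ratios of all genes in a pair of libraries shift by the same amount. That shift is set by the miRNA part of each list, 1719 of 7829, 1207 of 10834 and 4315 of 24992 reads in replicate order. The turns by that share are this common shift. The cause of the turns with conversions or with at least 10 reads was not tested. The number of the 6 genes with a cluster, 5, 4 and 6 by library, became 5, 3 and 6 with clusters of at least 10 reads and was the same with clusters naming 1 miRNA gene. No paired analysis was possible because the T1/V1 and T1 libraries share no replicate number.

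Library clusters of mir-239a, mir-34 and mir-246 in the T1/V1 lists held at most 31 reads, which limits their conversions and positions.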
